A study of Mus musculus with 8 samples.

Results

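The genes described here are 47 genes of the endoplasmic reticulum (ER) that import, fold, glycosylate, degrade and export secreted and membrane proteins, together with the stress sensors Ern1 (IRE1) and Atf6. They were chosen by symbol, with earlier results of these data known, from 37583 gene identifiers in the count files, of which 13964 had enough counts to be tested. All 47 were among the tested genes. RNA was sequenced from mouse splenic B cells (strain C57BL/6, labelled B6), from a fixed number of cells per library, in 8 libraries. The naive group (3 libraries) was B cells for which no culture is stated. The CpG group (3 libraries, titled Bregs-CpG, though the protocol calls them CpG-B cells) had received CpG ODN1668, a DNA oligonucleotide that activates TLR9, for 3 days. The TLR group (2 libraries, labelled Bregs-TLR) had the same 3 days of CpG, with LPS (a TLR4 ligand), PMA (a protein kinase C activator) and ionomycin (a calcium ionophore) present for the last 5 hours. Breg is short for regulatory B cell. No group was cultured without CpG, so 3 days of culture and CpG cannot be told apart, and neither can the 3 agents added last. Nothing in the labels ties the replicates to different mice or cultures, and p-values here therefore cover the spread among these 8 libraries, which may be technical.

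Gene counts summed to 15804311 to 20069272 per library, and 1 count was worth 0.0498 to 0.0633 CPM before TMM scaling. All levels given here are CPM after TMM scaling, with factors of 0.982 to 1.021. Levels are shares of a library, and in bulk RNA fewer cells of a type and less RNA per cell cannot be told apart. Replicate 1 of each group carried the library prefix RCa1 and the others RCa18. What the prefix stands for is not given in the labels, and 37.5% to 50.2% of the records in RCa1 libraries were marked as not uniquely aligned, against 14.7% to 21.5% in RCa18 libraries. The 7 B cell markers summed to 10449 to 11135 CPM in naive, 8960 to 13237 CPM in CpG and 2652 to 2858 CPM in TLR libraries, and all 7 were called lower in TLR than in CpG. The 12 macrophage genes summed to 1707, 416 and 214 CPM in naive replicates 1 to 3, to 30.9 to 61.2 CPM in CpG and to 20.2 to 27.7 CPM in TLR, and 11 of the 12 were lower in CpG than in naive. The 9 plasma cell genes, from a cell type that is rich in ER, summed to 1634 CPM in naive replicate 1, of which 1147 CPM was Jchain, and to 604 to 811 CPM in the other 7 libraries. With CpG 4 of these 9 rose (Prdm1, Tent5c, Cd93 and Eaf2), 3 fell (Sdc1, Irf4 and Slamf7) and 2 were not called. From CpG to TLR 2 rose (Sdc1 and Irf4) and 2 fell (Prdm1 and Cd93). Sdc1, the surface marker of plasma cells, stood at 21.7 to 23.6 CPM in naive, 2.97 to 8.39 CPM in CpG and 25.3 to 35.2 CPM in TLR libraries. Prdm1 went the other way, with means of 8.755, 77.5 and 14.9 CPM in naive, CpG and TLR. Of the T cell, natural killer cell, dendritic cell and basophil or mast cell lists, 7 of 8, 6 of 6, 4 of 6 and 2 of 4 genes were lower in CpG than in naive.

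Proteins bound for secretion enter the ER through the Sec61 channel, lose their signal peptide to the signal peptidase and receive N-linked sugars from the oligosaccharyltransferase. Chaperones such as Hspa5 (BiP) and the protein disulfide isomerases then fold them, proteins that fail to fold are drawn back out and degraded, and folded cargo leaves in COPII vesicles. When unfolded protein builds up, IRE1 splices the mRNA of Xbp1, ATF6 is cut to release a transcription factor, and PERK (Eif2ak3) slows translation. B cells that turn into antibody-secreting cells enlarge this machinery, in large part through Xbp1. Counts per gene do not show whether Xbp1 mRNA was spliced or ATF6 protein was cut.

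Before the levels, the promoters show what some of these genes share in sequence. The ER stress element (ERSE, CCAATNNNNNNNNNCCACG), which ATF6 and XBP1 are known to bind together with NF-Y, the shorter ERSE-II (ATTGGNCCACG) and the core TGACGTGG of the unfolded protein response element were searched on both strands in the 250 bases before the transcription start. RefSeq's table (build GRCm38.p6) held promoters for 37 of the 47 members. ERSE stood in 8 of the 37 (21.6%), against 35 of all 27025 genes in the table (0.13%), so that 8 of these 35 genes were members. The list of members was drawn up to include genes of the IRE1 and ATF6 branches. A high share of ERSE was thus built into the choice and is no test of the set. ERSE-II stood in Herpud1 and in 10 genes of the table (0.037%), and the core in Sec24d (2.7% of the members) and in 163 genes (0.603%). In the last 150 bases alone, ERSE stood in 7 members (18.9%) and 26 genes (0.0962%). Each match is printed with 15 bases on either side, 5′ to 3′ along the gene, with the match in capitals. Capitals that begin with CGTGG are matches on the opposite strand.
Hspa5: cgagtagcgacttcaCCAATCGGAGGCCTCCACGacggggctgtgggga
Sec24d: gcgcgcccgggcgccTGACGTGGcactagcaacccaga
Calr: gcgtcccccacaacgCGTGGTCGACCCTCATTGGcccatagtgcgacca
Herpud1: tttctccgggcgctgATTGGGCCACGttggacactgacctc
Hsp90b1: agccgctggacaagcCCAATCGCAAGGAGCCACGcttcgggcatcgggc
Hsp90b1: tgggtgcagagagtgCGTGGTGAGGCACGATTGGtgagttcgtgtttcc
Canx: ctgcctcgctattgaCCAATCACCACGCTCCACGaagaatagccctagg
Pdia6: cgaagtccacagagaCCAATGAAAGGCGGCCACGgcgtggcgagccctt
Dnajc3: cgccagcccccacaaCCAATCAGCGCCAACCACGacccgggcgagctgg
Creld2: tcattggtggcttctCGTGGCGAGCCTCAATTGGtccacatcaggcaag
Syvn1: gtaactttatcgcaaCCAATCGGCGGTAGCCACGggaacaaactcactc
In the order printed, the stretches are chr2:34772010-34772058 (plus strand), chr3:123267455-123267492 (plus strand), chr8:84847060-84847108 (minus strand), chr8:94386362-94386402 (plus strand), chr10:86705623-86705671 (minus strand), chr10:86705518-86705566 (minus strand), chr11:50325785-50325833 (minus strand), chr12:17266476-17266524 (plus strand), chr14:118937812-118937860 (plus strand), chr15:88819505-88819553 (plus strand) and chr19:6046517-6046565 (plus strand). The matches began 26 to 212 bases before the start, at 65 for Hspa5, 44 for Syvn1 and both 212 and 107 for Hsp90b1, and none overlapped another. A match is a run of letters and not a measured binding site, and the absence of one says nothing about a factor. Of the genes with ERSE, 5 encode chaperones or co-chaperones (Hspa5, Hsp90b1, Calr, Canx, Dnajc3), Pdia6 and Creld2 act on disulfides, and Syvn1 is the ubiquitin ligase of ER degradation.

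Among the members, all 4 signal peptidase genes, all 3 oligosaccharyltransferase genes and 5 of the 9 translocon genes rose after 3 days with CpG. Of the 8 ER degradation genes Sel1l rose and Edem2 fell, and their sum stood at 1432 to 1446 CPM in naive and 1675 to 1982 CPM in CpG libraries, beside 962 to 994 and 1111 to 1334 CPM for the translocon. No test between roles was made, and counts by role here and below stand beside the shares of all tested genes given for each comparison. In all, 24 of the 47 members rose and 1 fell in CpG against naive libraries, where 23.5% of all tested genes were called higher and 21.9% lower. The median log2 fold change was 0.37 over the members and 0.01 over all tested genes. The members summed to 7638, 8555 and 8604 CPM in naive replicates 1 to 3 and to 10741, 12555 and 11624 CPM in CpG replicates 1 to 3, so that the groups did not overlap. Calls were made at an adjusted p below 0.05 in edgeR's quasi-likelihood test. All 25 called members had the same direction within the RCa1 and within the RCa18 libraries. The call held whichever library was left out for 13 of the 25 (Atf6, Kdelr2, Lman1, Manf, Rpn1, Sdf2l1, Sec11c, Sec24d, Sel1l, Spcs2, Spcs3, Ssr1 and Ssr3), and without naive replicate 2 the count of risen members was 15. Macrophage markers fell in the same comparison, and of the plasma cell markers 4 rose and 3 fell, as given above. Their part in the result was not tested, and without naive replicate 1, the library with the highest sum of both lists, 18 members were called higher.

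With LPS, PMA and ionomycin in the last 5 hours, members changed in both directions, at shares close to those of all tested genes. In TLR against CpG libraries 9 members rose, among them Herpud1, Pdia6, P4hb, Lman1 and Ddost, and 10 fell, led by Sec24d, Sec11c, Dnajb9, Pdia4 and Syvn1. Over all tested genes 19.0% were called higher and 19.8% lower, so that neither member count, taken as a share of 47, stood far from the background. The median log2 fold change was 0.18 over the members and -0.02 over all tested genes. The members summed to 10417 CPM in TLR replicate 1 and 14840 CPM in TLR replicate 2, on either side of the CpG range. The 2 roles at the middle of folding, chaperones and isomerases, differed most between the TLR libraries, which is described at the end. Of the 19 called members, 9 held whichever library was left out (Ddost, Dnajb9, Edem1, Herpud1, Pdia4, Sec11c, Sec24d, Sec61a1 and Syvn1). Without TLR replicate 2, 4 members were called higher, and without TLR replicate 1, 6 were called lower. All 19 called members had the same direction in both prefixes.

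Against naive libraries, the TLR libraries held 29 members at higher and 7 at lower levels, where 31.6% of all tested genes were called higher and 29.7% lower. The 7 lower members were Sec11c, Pdia4, Syvn1, Dnajb9, Edem1, Os9 and Sec62. The median log2 fold change was 0.68 over the members and 0.01 over all tested genes. The call held whichever library was left out for 23 of the 36 called members, and without TLR replicate 1 the lower count was 3. This comparison shares its naive libraries with the first and its TLR libraries with the second, so the 3 are not independent of each other. The plot of members by library shows each gene's level in these 3 groups.

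**Figure D1:**
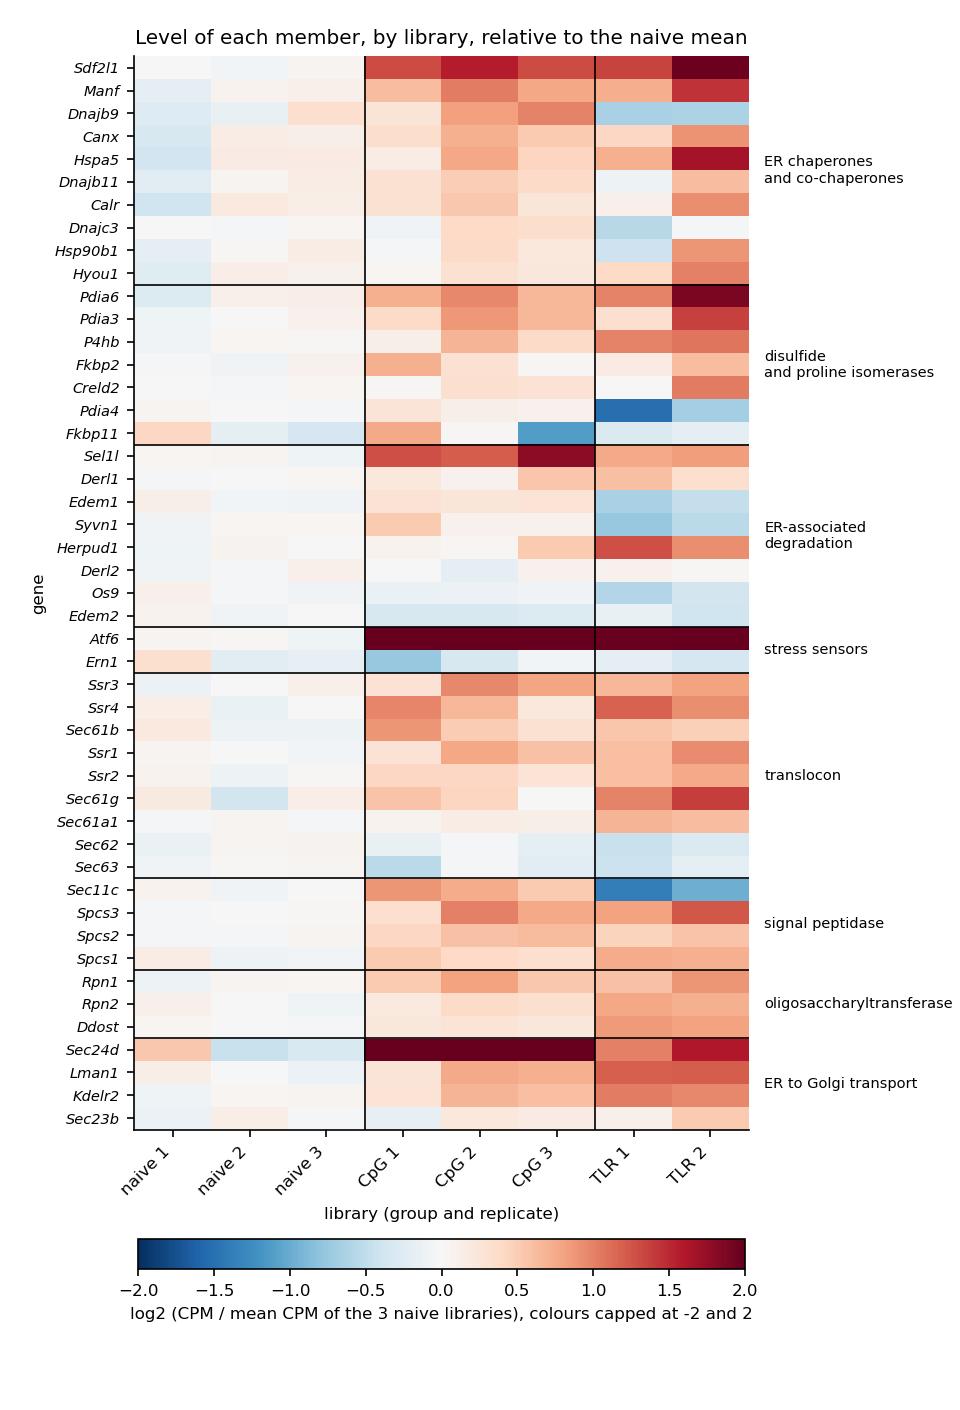
Level of each of the 47 members (rows, grouped by role) in each of the 8 libraries (columns), as the log2 ratio of CPM to the mean of the 3 naive libraries, red above and blue below, with colours capped at -2 and 2. Most rows turn red in the CpG columns, with Atf6 and Sec24d darkest, and in the TLR columns Sec11c, Pdia4, Dnajb9 and Syvn1 are blue in both libraries while the chaperones are redder in TLR replicate 2 than in TLR replicate 1.

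Of the 2 stress sensors, Atf6 changed at both steps and Ern1 was called in no comparison. Atf6, the membrane-bound factor that is cut in the Golgi under stress, stood at 138, 135 and 126 CPM in the naive libraries, 710.2, 758 and 823 CPM in the CpG libraries and 524 and 546 CPM in the TLR libraries. The groups did not overlap: every CpG library was above every TLR library, and every TLR library above every naive one. Atf6 rose 5.75-fold with CpG (log2 fold change 2.52 ± 0.11, edgeR adjusted p = 6.03e-07) and fell from CpG to TLR (log2 fold change -0.51 ± 0.12, edgeR adjusted p = 0.00834), while staying above naive (log2 fold change 2.01 ± 0.12). The fall was not called without TLR replicate 1 (edgeR adjusted p 0.0611). Ern1, the kinase and RNase IRE1, was measured at 33.6, 23.0 and 24.0 CPM in the naive libraries, 15.9, 21.6 and 26.0 CPM in the CpG libraries and 23.6 and 21.2 CPM in the TLR libraries. Its libraries overlapped in every comparison, and it passed the test in none (edgeR adjusted p = 0.204, 0.817 and 0.347 for the CpG step, the final step and TLR set against naive). Within prefixes the Ern1 difference between CpG and naive was -1.08 (log2) in RCa1 and 0.02 in RCa18.

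In the translocon, the 4 subunits of the TRAP complex (Ssr1 to Ssr4), which helps some signal sequences open the channel, rose together with CpG. Ssr3 rose the most of the called translocon genes, from 152, 168 and 178 CPM in naive to 203, 323 and 286 CPM in CpG libraries, with 262 and 288 CPM in TLR (log2 fold change 0.71 ± 0.16, edgeR adjusted p = 0.00638). Ssr2 rose the least, from 69.4, 61.8 and 67.3 to 88.4, 88.3 and 80.4 CPM, with 100.5 and 112 CPM in TLR (log2 fold change 0.37 ± 0.10, edgeR adjusted p = 0.0131). In both genes all CpG libraries were above all naive libraries. Ssr1 and Ssr4 rose by 0.57 ± 0.14 and 0.65 ± 0.18 (log2), and Sec61b, a small channel subunit, by 0.59 ± 0.16. Without naive replicate 2 the calls of Ssr2, Ssr4 and Sec61b were lost (edgeR adjusted p = 0.0709, 0.0608 and 0.0636), and that of Sec61b also without naive replicate 3 (0.064). The pore subunit itself, Sec61a1, stood at 184, 193 and 181 CPM in the naive libraries, 195, 205 and 202 CPM in the CpG libraries and 299 and 285 CPM in the TLR libraries. It did not pass the test with CpG (edgeR adjusted p = 0.36) and was the only translocon gene called in TLR against CpG in the main fit. There it rose 1.45-fold (log2 fold change 0.54 ± 0.10, edgeR adjusted p = 0.00266) with both TLR libraries above every other library. Ssr2 was close to the threshold in that fit (edgeR adjusted p = 0.0525). Over all libraries Ssr2 passed with library size alone, a filter at a mean of 1 CPM or the prefix as a term (edgeR adjusted p = 0.0434, 0.0469 and 0.0421). Without CpG replicate 1, Ssr2 and Ssr4 passed (edgeR adjusted p = 0.0403 and 0.0204). Sec62 and Sec63, which serve import after translation, were not called in either step (log2 fold changes -0.12 and -0.25 with CpG, -0.24 and -0.05 from CpG to TLR). Sec62 was lower in TLR than in naive (log2 fold change -0.37 ± 0.12), a call lost without naive replicates 2 or 3 or TLR replicate 1 (edgeR adjusted p 0.0659 to 0.17). Against naive, 7 of the 9 translocon genes were higher in TLR libraries, beside 31.6% of all tested genes. Sec61g is listed at only 1.10 to 3.72 CPM; 14.8% of its 50-base windows also occur in other genes (17.4% for Sec61b), so their counts are uncertain.

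All 4 signal peptidase genes among the members rose with CpG, and 1 of them then parted from the rest. Sec11c, a catalytic subunit, stood at 237, 215 and 227 CPM in the naive libraries, 418, 378 and 325 CPM in the CpG libraries and 86.4 and 115 CPM in the TLR libraries. CpG libraries were all above naive and TLR libraries all below naive. It rose 1.65-fold with CpG (log2 fold change 0.72 ± 0.14, edgeR adjusted p = 0.00235) and fell from CpG to TLR (log2 fold change -1.89 ± 0.17, edgeR adjusted p = 3.05e-05) to below the naive level (log2 fold change -1.17 ± 0.16). The other 3 genes encode non-catalytic subunits. Spcs1 had the smallest called rise, from 53.7, 45.2 and 46.7 to 69.5, 64.2 and 61.6 CPM, with 81.1 and 79.6 CPM in TLR (log2 fold change 0.42 ± 0.11, edgeR adjusted p = 0.00987), lost without naive replicates 2 or 3 (edgeR adjusted p 0.0515 to 0.0543). Spcs2 and Spcs3 rose by 0.55 ± 0.10 and 0.72 ± 0.17 (log2). None of these 3 was called from CpG to TLR (log2 fold changes -0.04 to 0.32), though Spcs1 passed without CpG replicate 1 (edgeR adjusted p = 0.0364), and all 3 were higher in TLR than in naive. Sec11a, the other catalytic subunit (not a member, and named after its values were seen), stood at 77.5 ± 6.06 CPM in naive, 93.0 ± 5.62 CPM in CpG and 105 ± 7.00 CPM in TLR (mean ± SD, n = 3, 3 and 2), was called in neither step (edgeR adjusted p = 0.0624 and 0.25) and was higher in TLR than in naive (log2 fold change 0.44 ± 0.12). Spcs1 shares 16.3% of its exon bases with Glt8d1 on the other strand, and the counting ignored strand.

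The 3 oligosaccharyltransferase genes among the members, all non-catalytic subunits, rose with CpG, and 2 of them rose again. Subunits outside the members differed: with CpG Krtcap2 rose and the catalytic Stt3b fell, as given further on. Dad1 was not called with CpG (log2 fold change 0.04, edgeR adjusted p = 0.87). Rpn1 (ribophorin I) went from 159, 176 and 175 CPM in naive to 245, 296 and 248 CPM in CpG libraries (log2 fold change 0.63 ± 0.12, edgeR adjusted p = 0.00269) and was not called after that, with 255 and 312 CPM in TLR (log2 fold change 0.11 ± 0.14, edgeR adjusted p = 0.566). Ddost, another subunit of the complex, stood at 114, 110.0 and 109 CPM in the naive libraries, 130.4, 134 and 130.5 CPM in the CpG libraries and 200.2 and 194 CPM in the TLR libraries. Its libraries were ordered naive, CpG, TLR without overlap. The TLR step (log2 fold change 0.58 ± 0.10, edgeR adjusted p = 0.00113) was larger than the CpG step (log2 fold change 0.24 ± 0.09, edgeR adjusted p = 0.044), and no test of that difference was made. Rpn2 (ribophorin II) followed the same order, with 193, 179 and 169 CPM in naive, 207, 234 and 226 CPM in CpG and 308 and 295 CPM in TLR (log2 fold changes 0.30 ± 0.10 and 0.44 ± 0.11). The CpG calls of Ddost and Rpn2 were close to the threshold: that of Ddost was lost without naive replicates 1, 2 or 3 or CpG replicates 2 or 3 (edgeR adjusted p 0.0721 to 0.161) and that of Rpn2 without naive replicates 2 or 3 or CpG replicates 2 or 3 (edgeR adjusted p 0.0803 to 0.168). The TLR call of Rpn2 was lost without TLR replicate 1 (edgeR adjusted p 0.0783).

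**Figure D2:**
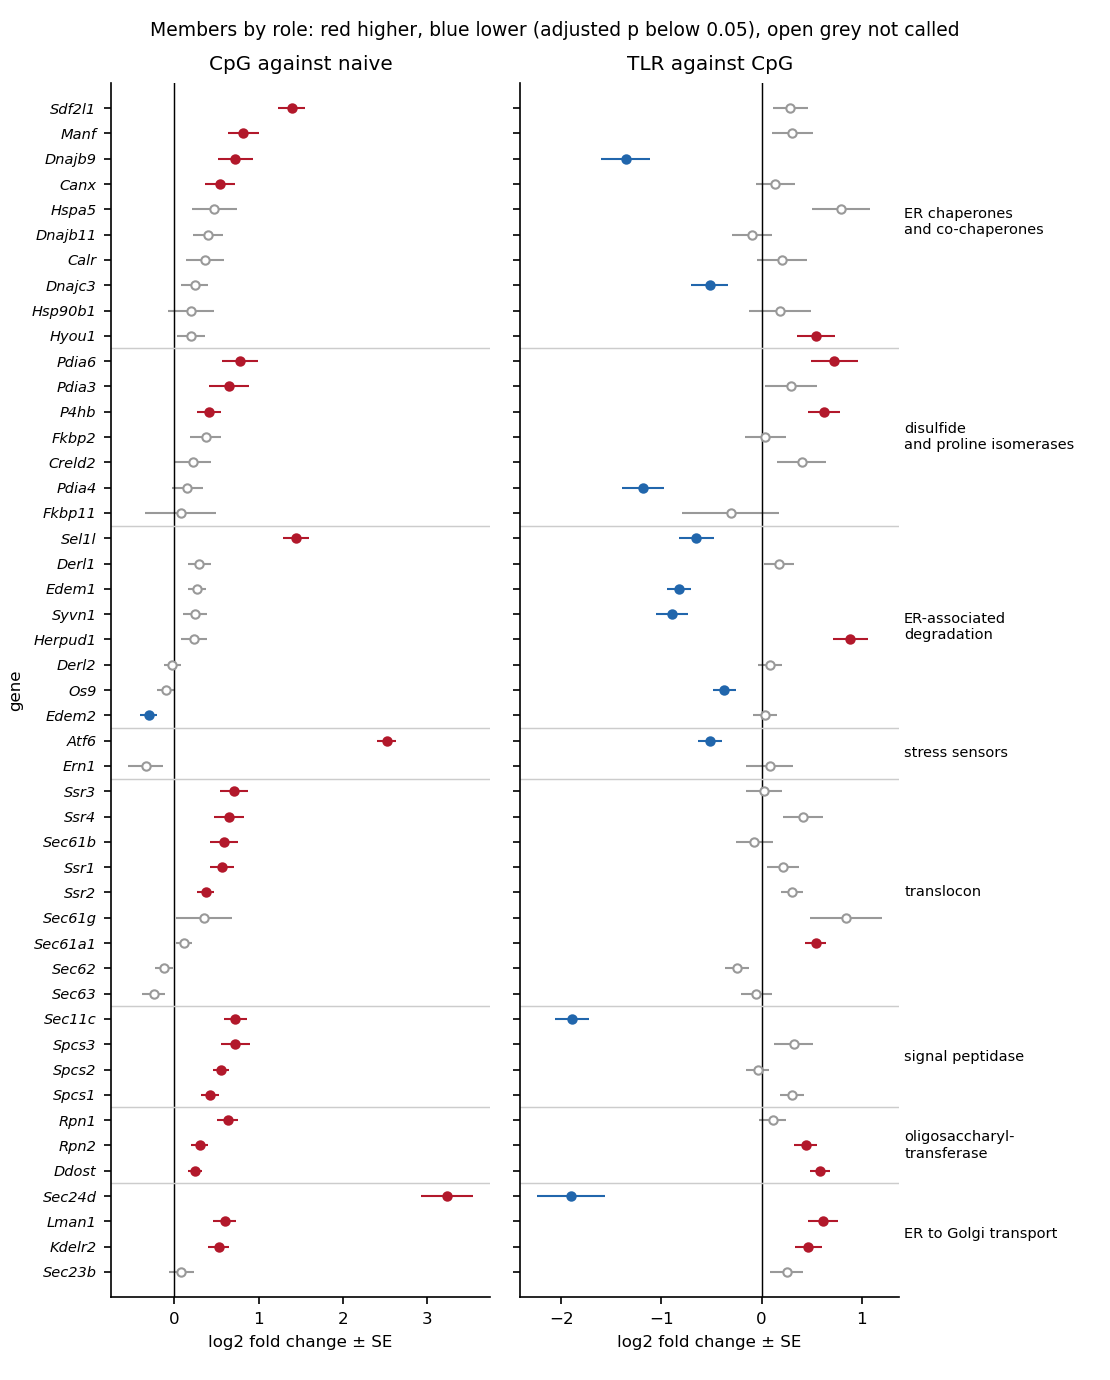
Log2 fold change (points) with its SE (bars) of each member in CpG against naive (left) and TLR against CpG (right), grouped by role. Filled red and blue points passed the test upwards and downwards, and open grey points did not. On the left 24 points are red and 1 (Edem2) is blue, and on the right 9 are red and 10 are blue.

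Among the 10 chaperones and co-chaperones, 4 rose with CpG and none fell: Sdf2l1, Manf, Dnajb9 and Canx. Over all tested genes 23.5% were called higher and 21.9% lower in that comparison. Sdf2l1, a partner of the Hspa5 co-chaperone Dnajb11, stood at 30.4, 29.6 and 31.8 CPM in the naive libraries, 75.5, 90.5 and 75.8 CPM in the CpG libraries and 77.8 and 119 CPM in the TLR libraries. Every CpG and TLR library was above every naive library, a 2.63-fold rise with CpG (log2 fold change 1.40 ± 0.16, edgeR adjusted p = 0.000117). TLR did not pass the test against CpG (log2 fold change 0.29 ± 0.17) except where TLR replicate 2 was the 1 TLR library left. Within prefixes the log2 ratio of TLR to CpG was 0.04 in RCa1 and 0.52 in RCa18. Canx (calnexin), a lectin that holds glycoproteins in the ER, rose least, from 349, 484 and 470.1 to 553, 714 and 626 CPM, with 579.8 and 810.0 CPM in TLR (log2 fold change 0.54 ± 0.18, edgeR adjusted p = 0.0318). Its call was lost without naive replicates 1 or 3 or CpG replicates 2 or 3 (edgeR adjusted p 0.0563 to 0.109). Manf, a secreted ER stress protein, rose by 0.82 ± 0.19 (log2) with CpG. From CpG to TLR it passed only where TLR replicate 2 was the 1 TLR library left. Its log2 fold change in that step ranged from -0.11 to 0.62 over the alternatives, with 0.62 without TLR replicate 1.

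Hspa5 (BiP), the central ER chaperone and the usual marker of ER stress, stood at 569.5, 831 and 834 CPM in the naive libraries, 825, 1275 and 1006 CPM in the CpG libraries and 1214 and 2367 CPM in the TLR libraries. In each group replicate 1 was the lowest, and CpG overlapped both neighbours. The difference did not pass the test for CpG against naive (log2 fold change 0.48 ± 0.26, edgeR adjusted p = 0.167) or for TLR against CpG (log2 fold change 0.79 ± 0.29, edgeR adjusted p = 0.0544), and did for TLR against naive (log2 fold change 1.27 ± 0.29, edgeR adjusted p = 0.00376), 2.40-fold. The last call was lost without TLR replicate 2 (edgeR adjusted p 0.062). Within prefixes the log2 ratio of CpG to naive was 0.53 in RCa1 and 0.45 in RCa18, and that of TLR to CpG 0.56 and 1.05. With the prefix as a term in the fit both steps passed (edgeR adjusted p = 0.0166 and 0.00215), and the step from CpG to TLR also passed without TLR replicate 1 or CpG replicate 2 (0.0131 and 0.0393) and in DESeq2 (adjusted p = 0.0192), but not without TLR replicate 2 (log2 fold change 0.22, edgeR adjusted p = 0.606). Hyou1, a nucleotide exchange factor for Hspa5, was the 1 chaperone called higher in TLR than in CpG. It measured 183, 238 and 229.8 CPM in the naive libraries, 224, 268 and 254 CPM in the CpG libraries and 288 and 437 CPM in the TLR libraries (log2 fold change 0.54 ± 0.19, edgeR adjusted p = 0.044), and the call was lost without CpG replicates 1, 2 or 3 or TLR replicate 2 (edgeR adjusted p 0.0572 to 0.473).

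Of the J-domain co-chaperones, which hand clients to Hspa5, Dnajb9 and Dnajc3 fell from CpG to TLR and Dnajb11 was not called in the fit over all libraries. Dnajb9 (ERdj4), which recruits Hspa5 to misfolded protein and to IRE1, stood at 24.0, 25.6 and 35.9 CPM in the naive libraries, 34.0, 50.3 and 56.5 CPM in the CpG libraries and 18.2 and 18.4 CPM in the TLR libraries. CpG overlapped naive in 1 library (34.0 CPM in CpG replicate 1, 35.9 CPM in naive replicate 3), and both TLR libraries were below all others. It rose with CpG (log2 fold change 0.72 ± 0.21, edgeR adjusted p = 0.0183) and fell from CpG to TLR (log2 fold change -1.36 ± 0.24, edgeR adjusted p = 0.00186). The rise was lost without naive replicates 1 or 2 or CpG replicate 3 (edgeR adjusted p 0.0648 to 0.0702). Dnajc3 (p58IPK) fell from CpG to TLR (log2 fold change -0.52 ± 0.18, edgeR adjusted p = 0.0457), with CpG replicate 1 at 112 CPM and TLR replicate 2 at 114 CPM, so the groups overlapped, and this call was lost without CpG replicates 2 or 3 or TLR replicate 1 (edgeR adjusted p 0.109 to 0.344). The log2 fold changes of Dnajb11 (ERdj3) were 0.39, -0.09 and 0.30 in the 3 comparisons. Hsp90b1 (GRP94) and Calr (calreticulin) were not called in that fit either, and their log2 fold changes were 0.20 ± 0.28 and 0.37 ± 0.23 with CpG and 0.18 ± 0.31 and 0.20 ± 0.25 from CpG to TLR. For Hsp90b1 the value from CpG to TLR was -0.62 without TLR replicate 2 and 0.69 without TLR replicate 1, where it passed (edgeR adjusted p = 0.0375). In TLR against naive Hsp90b1, Calr and Dnajb11 passed without TLR replicate 1, with log2 fold changes of 0.9, 0.93 and 0.62. Their lowest values over the alternatives were -0.41 (Hsp90b1, without TLR replicate 2), 0.1 and -0.1. With the prefix as a term, Dnajb11 passed with CpG (edgeR adjusted p = 0.0221) and Calr in TLR against naive (0.0116).

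Disulfide isomerases changed in both directions: Pdia6 and P4hb rose at both steps, and Pdia4 fell in the final one. Pdia6 stood at 171, 221 and 226 CPM in the naive libraries, 335, 399.8 and 325 CPM in the CpG libraries and 411 and 758 CPM in the TLR libraries, with no overlap between groups. It rose with CpG (log2 fold change 0.78 ± 0.21, edgeR adjusted p = 0.0149) and again from CpG to TLR (log2 fold change 0.73 ± 0.24, edgeR adjusted p = 0.0348). P4hb, the founding protein disulfide isomerase, stood at 226, 245 and 242 CPM in the naive libraries, 259, 381 and 308 CPM in the CpG libraries and 472 and 501 CPM in the TLR libraries and also rose at both steps (log2 fold changes 0.41 ± 0.14 and 0.62 ± 0.16). Pdia4 (ERp72), with several thioredoxin-like domains, stood at 468, 448 and 441 CPM in the naive libraries, 541, 489.8 and 478 CPM in the CpG libraries and 159.5 and 282 CPM in the TLR libraries. All naive and CpG libraries were above both TLR libraries. It was not called with CpG (log2 fold change 0.15 ± 0.18, edgeR adjusted p = 0.522) and fell from CpG to TLR (log2 fold change -1.19 ± 0.21, edgeR adjusted p = 0.00182). The Pdia4 fall held without each library, whereas the TLR rise of Pdia6 was lost without CpG replicates 1 or 3 or TLR replicate 2 (edgeR adjusted p 0.0753 to 0.491), and that of P4hb without TLR replicate 2 (edgeR adjusted p 0.0731). With CpG, the calls were lost without naive replicate 1 (edgeR adjusted p 0.0551) for Pdia6 and without naive replicates 1, 2 or 3 or CpG replicates 2 or 3 (edgeR adjusted p 0.0675 to 0.131) for P4hb. Pdia3 (ERp57), which works with Canx and Calr, rose with CpG (log2 fold change 0.65 ± 0.23), lost without naive replicates 1, 2 or 3 or CpG replicates 2 or 3 (edgeR adjusted p 0.0837 to 0.131). Creld2, Fkbp2 and Fkbp11 were called in neither step. Creld2 and Pdia3 passed from CpG to TLR only where TLR replicate 2 was the 1 TLR library left. Their log2 fold changes in that step were 0.83 and 0.72 without TLR replicate 1, and -0.21 and -0.32 without TLR replicate 2. Without CpG replicate 3, Fkbp2 passed with CpG (edgeR adjusted p = 0.0422). Fkbp11, a proline isomerase abundant in plasma cells, stood at 1.91 to 6.97 CPM in the 8 libraries.

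**Figure D3:**
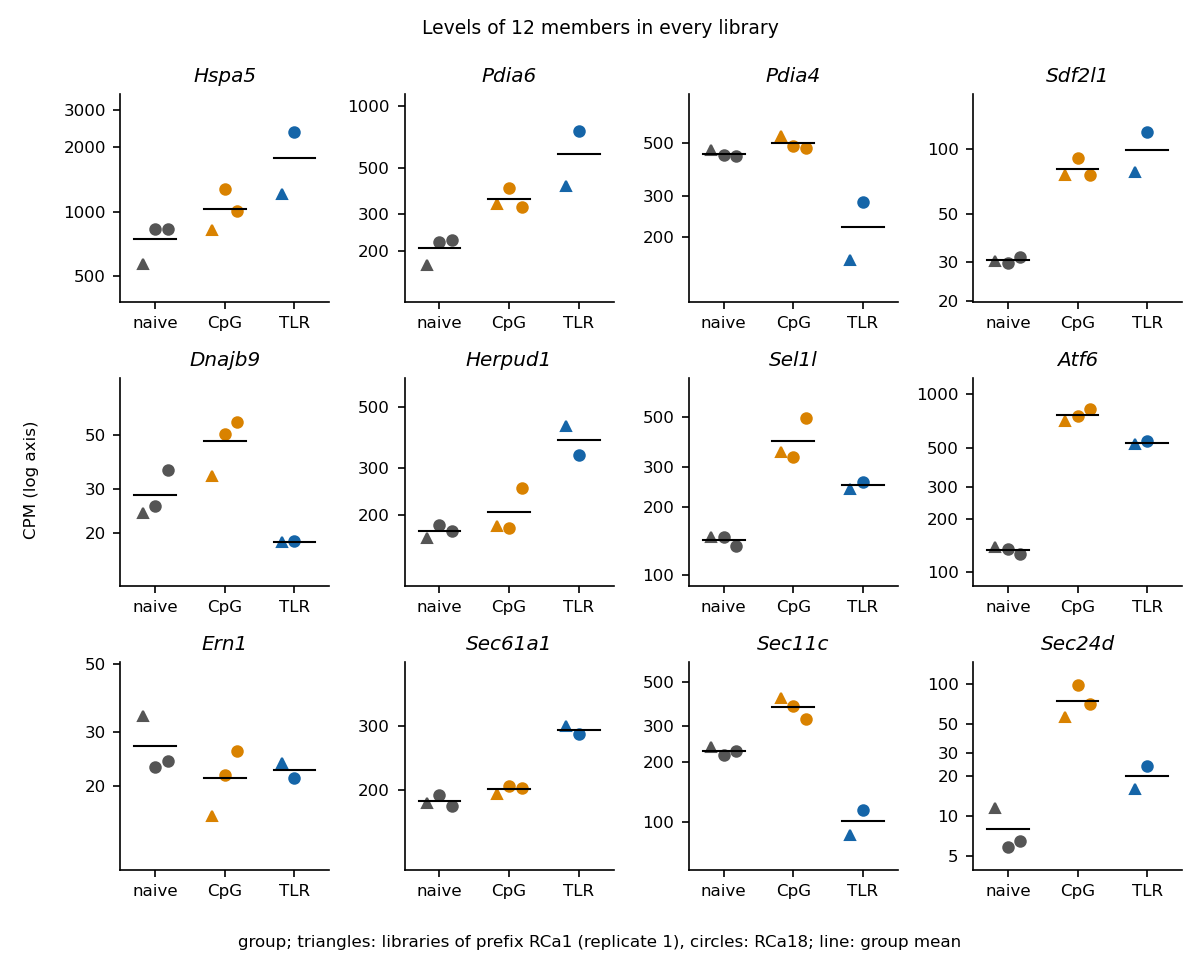
Levels of 12 members in every library, in CPM on log axes, with triangles for RCa1 libraries, circles for RCa18 libraries and a line at each group's mean. Sec11c, Sec24d and Sel1l peak in CpG, Pdia4 and Dnajb9 are lowest in TLR, Herpud1 and Sec61a1 are highest in TLR, and Ern1 overlaps across all groups.

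Of the 8 degradation genes, Sel1l rose with CpG and Herpud1 with the final step, while 4 fell in TLR, Sel1l among them. From CpG to TLR 19.8% of all tested genes were called lower. Sel1l, the scaffold of the retrotranslocation complex, stood at 147, 148 and 135 CPM in the naive libraries, 351, 332 and 494 CPM in the CpG libraries and 241 and 258 CPM in the TLR libraries. The 3 groups did not overlap, with CpG highest. Sel1l rose 2.73-fold with CpG (log2 fold change 1.45 ± 0.15, edgeR adjusted p = 8.16e-05) and fell from CpG to TLR (log2 fold change -0.65 ± 0.17, edgeR adjusted p = 0.0143). The fall was lost without TLR replicates 1 or 2 (edgeR adjusted p 0.058 to 0.0951). Syvn1 (Hrd1), the ubiquitin ligase that Sel1l holds, was not called with CpG, when 1 of 3 libraries was high, and then fell: 415, 448 and 448 CPM in the naive libraries, 626, 465 and 465 CPM in the CpG libraries and 257 and 300.1 CPM in the TLR libraries (log2 fold change -0.90 ± 0.16, edgeR adjusted p = 0.002). Edem1, a lectin that hands glycoproteins to this complex, fell in TLR too (log2 fold change -0.82 ± 0.12), as did Os9, another such lectin (-0.37 ± 0.12). The call of Os9 was lost without CpG replicates 2 or 3 or TLR replicate 1 (edgeR adjusted p 0.0568 to 0.232). Herpud1 (HERP), which assembles the same complex, went the other way, with 165, 185 and 176 CPM in the naive libraries, 183, 180.0 and 253 CPM in the CpG libraries and 427 and 334 CPM in the TLR libraries. Both TLR libraries were above every other library (log2 fold change 0.89 ± 0.17, edgeR adjusted p = 0.00275). In the RCa18 libraries alone this rise did not pass (log2 fold change 0.62, edgeR adjusted p = 0.0628). Edem2 was the 1 member lower in CpG than in naive, with 71.4, 64.2 and 67.4 CPM in the naive libraries, 53.9, 54.4 and 55.8 CPM in the CpG libraries and 60.8 and 51.4 CPM in the TLR libraries (log2 fold change -0.31 ± 0.10, edgeR adjusted p = 0.0366), and that call was lost on leaving out any of the 6 libraries compared (edgeR adjusted p 0.0525 to 0.0966). Derl1 and Derl2, of the retrotranslocation channel, were called in neither step, though Derl1 passed with CpG without CpG replicate 2 (edgeR adjusted p = 0.0492).

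In transport from the ER to the Golgi, the largest change of all members was in a COPII coat gene. Sec24d, 1 of the coat's cargo-binding subunits, stood at 11.6, 5.86 and 6.47 CPM in the naive libraries, 56.4, 98.1 and 70.5 CPM in the CpG libraries and 16.0 and 24.1 CPM in the TLR libraries. No groups overlapped. Sec24d rose 9.42-fold with CpG (log2 fold change 3.24 ± 0.31, edgeR adjusted p = 4.11e-05; 2.29 in RCa1 and 3.77 in RCa18, as log2 ratios) and fell from CpG to TLR (log2 fold change -1.90 ± 0.34, edgeR adjusted p = 0.00167). TLR against naive was higher by 1.33 ± 0.32 (log2), and this call was lost without TLR replicate 2 (log2 fold change 1.01). Within prefixes the log2 ratio of TLR to naive was 0.47 in RCa1 and 1.97 in RCa18. Kdelr2, a receptor that returns escaped chaperones to the ER, stood at 38.0, 41.6 and 42.1 CPM in the naive libraries, 48.9, 64.7 and 61.5 CPM in the CpG libraries and 82.2 and 79.0 CPM in the TLR libraries and rose at both steps (log2 fold changes 0.52 ± 0.12 and 0.47 ± 0.14). Lman1 (ERGIC-53), a cargo receptor for glycoproteins, did the same, with 54.9, 50.4 and 47.03 CPM in the naive libraries, 60.8, 86.3 and 82.9 CPM in the CpG libraries and 117 and 118 CPM in the TLR libraries (0.60 ± 0.14 and 0.61 ± 0.15). The libraries of both genes were ordered naive, CpG, TLR without overlap. Their second rises were lost without TLR replicates 1 or 2 (edgeR adjusted p = 0.12 and 0.0841 for Kdelr2, 0.0541 and 0.0596 for Lman1). Sec23b, the coat's inner GTPase-activating subunit, was not called in the fit over all libraries (log2 fold changes 0.08, 0.25 and 0.33). In TLR against naive it passed with the prefix as a term (edgeR adjusted p = 0.0121) and without TLR replicate 1 (0.0354).

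Per kilobase of exon (CPM divided by the length of the gene's GENCODE M21 exons, mean ± SD over libraries), the soluble chaperones and isomerases were the most abundant members. In naive libraries Calr led with 246 ± 52.4, followed by Pdia4 with 189 ± 5.96, Hspa5 with 176 ± 35.9 and Hsp90b1 with 159 ± 19.2. Neighbours in this order overlapped within 1 SD. In CpG libraries Calr (317 ± 34.8) and Hspa5 (245 ± 53.5) led, and in TLR libraries Hspa5 (423 ± 193) and Calr (365 ± 144), again with overlapping spreads, while Pdia4 was at 92.1 ± 36.2. At the low end in naive libraries were Sec61g (0.579 ± 0.115), Sec24d (1.26 ± 0.495), Fkbp11 (1.53 ± 0.446) and Ern1 (3.29 ± 0.718). Atf6 went from 14.4 ± 0.674 in naive to 82.7 ± 6.11 in CpG and 58.0 ± 1.70 in TLR. The annotation behind the counts may differ from M21, so these are approximate levels.

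Of 67 other genes of the same pathway (66 tested), 24 rose and 8 fell with CpG, and 17 rose and 11 fell from CpG to TLR, with median log2 fold changes of 0.27 and 0.14. Over all tested genes 23.5% were called higher and 21.9% lower with CpG, and 19.0% and 19.8% from CpG to TLR, and the counts of the 4 lists that make up these genes stand beside the same shares. Of the 12 stress response regulators, 2 rose and 2 fell with CpG, and 3 rose and 3 fell from CpG to TLR. Xbp1, the target of IRE1 and a driver of secretory cells, rose from 155, 146 and 149.8 to 319, 318 and 332 CPM, with 267 and 309 CPM in TLR (log2 fold change 1.11 ± 0.10, edgeR adjusted p = 3.53e-05). Its TLR libraries were all below CpG but did not pass the test (edgeR adjusted p = 0.278). Eif2ak3 (PERK) fell at both steps, from 179, 207 and 202 to 124, 127 and 127 to 45.1 and 50.3 CPM (-0.64 ± 0.10 and -1.40 ± 0.12 as log2 fold changes). Atf4, the factor translated when PERK or related kinases act, rose from CpG to TLR, 416, 362 and 554 to 1434 and 1061 CPM (log2 fold change 1.49 ± 0.20, edgeR adjusted p = 0.000304). Trib3, a target of Atf4, was at 0.990, 1.903 and 1.36 CPM in naive, 30.8, 12.6 and 101 CPM in CpG and 174 and 77.7 CPM in TLR. It rose with CpG (log2 fold change 5.08 ± 0.79, or 3.92 without CpG replicate 3) and was not called from CpG to TLR (log2 fold change 1.38 ± 0.66). Without CpG replicate 3 the latter step was 2.54 and passed (edgeR adjusted p = 0.00379). Creb3l2, a membrane-bound factor related to Atf6, fell in TLR (log2 fold change -1.46 ± 0.27).

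Of the 21 tested genes of the list on folding and degradation, 9 rose and 2 fell with CpG, and 4 rose and 7 fell from CpG to TLR. Mzb1, Erp44 and Dnajc10 rose with CpG and fell after it, as the members Sec11c and Sec24d did. Mzb1, a B cell partner of GRP94 in antibody assembly, stood at 204 ± 48.0, 655 ± 58.3 and 139 ± 1.70 CPM in naive, CpG and TLR libraries (mean ± SD). It rose by 1.68 ± 0.17 and fell by 2.24 ± 0.20 (log2). Another annotated gene model shares 57.2% of the exon bases of Mzb1, but was not among the genes counted here. Erp44, which retains unfinished antibody in the early secretory pathway, stood at 107 ± 2.98, 319 ± 53.5 and 159 ± 4.88 CPM (log2 fold changes 1.58 ± 0.13 and -1.01 ± 0.15), and Dnajc10, a reductase of the ER, at 91.6 ± 6.97, 178 ± 19.0 and 106 ± 8.98 CPM (0.96 ± 0.12 and -0.75 ± 0.13). Ero1lb, an oxidase that recharges disulfide isomerases, was not called with CpG and fell the most of all these genes from CpG to TLR, with 173, 196 and 196 CPM in the naive libraries, 232, 236 and 225 CPM in the CpG libraries and 29.2 and 45.9 CPM in the TLR libraries (log2 fold change -2.62 ± 0.19, edgeR adjusted p = 1.18e-05). Its paralog Ero1l was called higher in that step (log2 fold change 1.12 ± 0.32), named here after its values were seen. Erp29, a chaperone of the isomerase fold, fell in TLR (log2 fold change -1.26 ± 0.15); 24.4% of its exon bases overlap Naa25 on the other strand.

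Of the 15 genes of translocation and glycosylation, 7 rose and 1 fell with CpG, and 7 rose and 1 fell from CpG to TLR. Tram1, a translocon-associated protein, stood at 236, 247 and 255 CPM in the naive libraries, 763, 732 and 685 CPM in the CpG libraries and 193 and 208 CPM in the TLR libraries. It rose with CpG (log2 fold change 1.56 ± 0.11, edgeR adjusted p = 6.90e-06) and fell back in TLR (log2 fold change -1.86 ± 0.12, edgeR adjusted p = 8.35e-06). Krtcap2, a subunit of the oligosaccharyltransferase, rose with CpG (log2 fold change 0.98 ± 0.15). Stt3b, a catalytic subunit of that enzyme, fell with CpG from 326, 451 and 399.5 to 202, 276 and 238 CPM and stood at 330.3 and 369.8 CPM in TLR (log2 fold changes -0.72 ± 0.16 and 0.55 ± 0.17). Its second call was lost without CpG replicates 1 or 3 or TLR replicates 1 or 2 (edgeR adjusted p 0.0596 to 0.166). Srprb, of the receptor for the signal recognition particle, and Dad1, another subunit of the transferase, rose from CpG to TLR (0.69 ± 0.13 and 0.82 ± 0.18). The call of Dad1 was lost without TLR replicate 1 (edgeR adjusted p 0.0694). Of the 18 coat and cargo genes, 6 rose and 3 fell with CpG, and 3 rose and none fell from CpG to TLR. Sec13, of the outer COPII coat, rose at both steps (0.51 ± 0.10 and 0.57 ± 0.11), and the GTPase Sar1b rose with CpG (0.69 ± 0.12). Sec24b, a paralog of Sec24d, fell with CpG by 0.41 ± 0.10 (log2) and rose in TLR by 0.35 ± 0.11, as Sar1a did by 0.37 ± 0.12. The TLR calls of Sec24b and Sar1a were lost without several single libraries (edgeR adjusted p 0.0538 to 0.244 and 0.053 to 0.242).

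**Figure D4:**
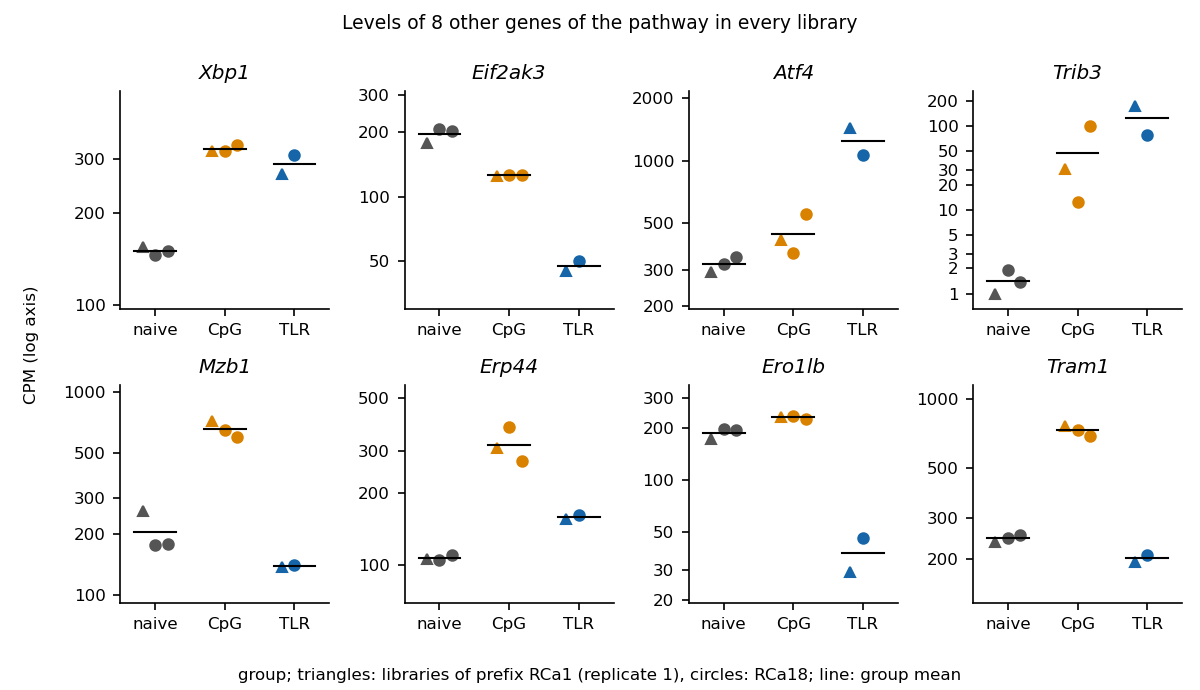
Levels of 8 other pathway genes in every library, in CPM on log axes, drawn as for the members. Xbp1 is higher in all CpG and TLR libraries than in any naive library, Eif2ak3 is lower at each step, Mzb1, Erp44 and Tram1 peak in CpG, and Ero1lb is lowest in TLR.

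The 2 TLR libraries stood apart in chaperones and isomerases. In TLR replicate 2, 12 of the 47 members were at least 1.5 times their level in TLR replicate 1, where 6.36% of 12027 tested genes were (those averaging 1 CPM or more and not at 0 in TLR replicate 1). Of these 12, 7 were among the 10 chaperones and co-chaperones and 4 among the 7 isomerases, and the twelfth was Sec24d (1.51 times). Hsp90b1 stood at 481 and 1190 CPM in TLR replicates 1 and 2, Creld2 at 48.4 and 99.4 CPM, Pdia3 at 465 and 952 CPM and Hspa5 at 1214 and 2367 CPM. No degradation, translocon, signal peptidase or oligosaccharyltransferase gene reached 1.5 times, and Herpud1 was lower in replicate 2. The 8 members with an ERSE match had a median ratio of 1.81 (1.17 to 2.47), and the 27 members with a promoter in the table and no match had 1.10 (0.839 to 2.05). The median log2 fold changes of these 8 and 27 members were 0.31 and 0.37 with CpG, 0.19 and 0.04 from CpG to TLR, and 0.60 and 0.51 for TLR against naive. All of these 8 but Syvn1 are chaperones, co-chaperones or isomerases, the roles with median TLR ratios of 1.59 and 1.77. Motif and role therefore cannot be told apart here. In the other groups the median ratio of RCa18 to RCa1 libraries was 1.27 (naive) and 1.22 (CpG) for the chaperones, 1.02 and 1.08 for the isomerases (1.77 in TLR) and 1.01 and 1.02 for those tested genes. With 1 TLR library per prefix, the prefix and the TLR library cannot be told apart. The calls of Canx, Hspa5, Hyou1, Pdia3, Creld2, Sec61b, Sec61g, Dnajb9 and Sec24d in TLR against naive were lost without TLR replicate 2. The log2 fold change of Pdia3 was then 0.34 in place of 0.94 and that of Creld2 0.01 in place of 0.62. Not all of these calls hinged on that library alone. Those of Dnajb9 and Sec61b, with TLR ratios of 1.01 and 0.948, were also lost without TLR replicate 1. That of Sec61g was also lost without naive replicate 2, and that of Creld2 on leaving out any naive library. The plot of the spread between TLR libraries shows the TLR ratios by role.

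**Figure D5:**
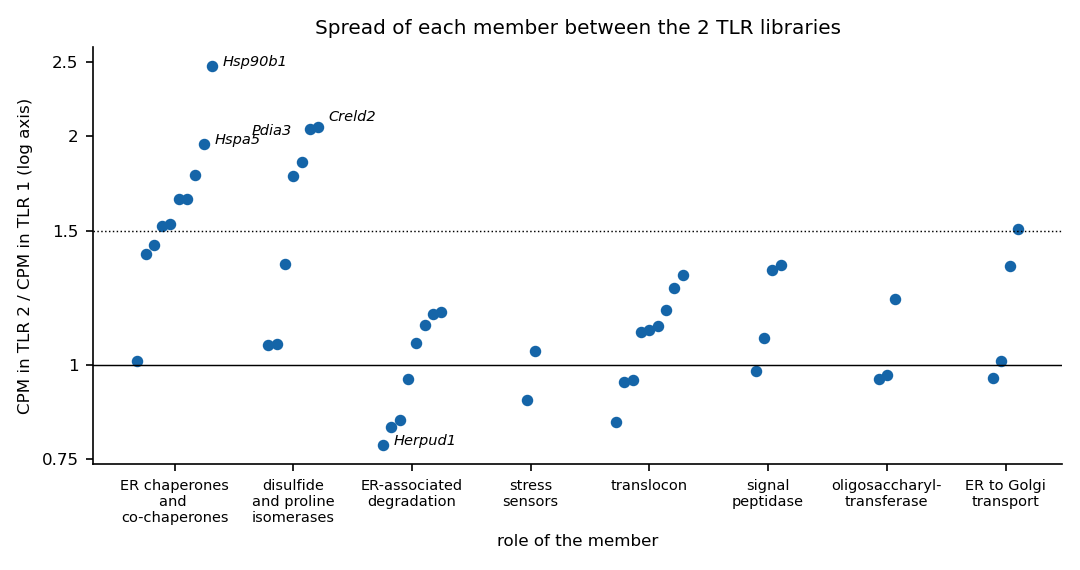
Ratio of the level in TLR replicate 2 to that in TLR replicate 1 (log axis) for each member, by role, with a line at 1 and a dotted line at 1.5. Chaperones and isomerases reach 2.47, while degradation, translocon, signal peptidase and oligosaccharyltransferase genes lie between 0.783 and 1.35.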

How the data were processed

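The authors deposited raw read counts per gene, 1 file per library, for 8 RNA libraries (polyA selection, strand-specific kit, per the labels' protocols). STAR, HTSeq and edgeR with build mm9 were used, per the submitters' processing notes; their versions and the annotation are not given in the sources used here. Per the file names the counting ignored strand, so reads of overlapping genes on opposite strands cannot be told apart. Symbols came from GENCODE M21 by identifier (32860 of 37583 matched). Rows that name no gene were left out: reads in no gene were 7.84% to 15.0% and ambiguous reads 1.29% to 2.15% of the reads.

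Counts were fitted with edgeR 4.0.16 (R 4.3.3): filterByExpr, TMM and the quasi-likelihood test, with 1 coefficient for each group and all 8 libraries in 1 fit (common dispersion 0.0421), Benjamini-Hochberg adjustment over 13964 genes, calls below 0.05, prior count 0.125. SEs were derived from the F statistic (log2 fold change over root F). On counts simulated for CpG against naive over 13964 genes, the fit called 68 of 100 genes changed by a log2 of 1 and 93 of 100 changed by 2, with 14 false calls. Only these genes were changed, and only in the CpG group, whereas in the data 23.5% of tested genes were called higher and 21.9% lower. The rates in the data may therefore differ. No 2 libraries agreed within sampling noise. The members and lists were chosen with earlier results of these data known. Genes given by library were those with the largest and smallest called change of each role in each step (the smallest p where none was called), plus Ern1, Atf6, Hspa5 and Xbp1, and up to 3 called genes per other list by smallest p. Alternatives were DESeq2 1.42.0, other scaling and filters, a fit of 2 groups only, a block for replicate number, a term for prefix, RCa18 libraries alone, immunoglobulin genes left out (89), and each library left out. Promoters were taken from RefSeq (GRCm38.p6), and protein sequences were not used here.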

Additional observations from a re-analysis of the deposited data

How the results depend on the processing

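With each library left out in turn, members higher in CpG than in naive ranged from 15 to 24 and members lower were 0 each time, members higher in TLR than in CpG from 4 to 12 and lower from 6 to 10, and members higher in TLR than in naive from 21 to 31 and lower from 3 to 7. The count of all tested genes called higher in TLR than CpG ranged from 1683 to 2756, and that of all tested genes called lower in TLR than CpG from 1833 to 2869. Edem2, the member lower in CpG, was not called without the filter on low counts or in the RCa18 libraries (0 members lower in both). In the RCa18 libraries the count of members higher in TLR than in CpG came to more than 1.5 times the 9 over all libraries. These libraries hold 1 TLR library, TLR replicate 2, in which chaperones and isomerases were high, so that count rests on it. Under DESeq2, other scaling, other filters, the prefix as a term, only the groups compared and no immunoglobulin genes, the member counts otherwise stayed within 1.5 times those reported, and no called member changed direction under any alternative. Of the members not called, 7, 11 and 8 in the 3 comparisons passed under at least 1 alternative. Where a TLR library was left out, the remaining one was assumed to vary like the other groups. No scaling moved the median of all tested genes by over 0.1 (log2).

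With the replicate number as a block, 25 members were higher and 1 lower in CpG than in naive, 10 and 10 in TLR than in CpG, and 31 and 7 in TLR than in naive. Hspa5 then passed at both steps (edgeR adjusted p = 0.017 and 0.00395), Dnajb11 with CpG (0.031), Calr and Sec23b in TLR against naive (0.0241 and 0.0308), Atf4 with CpG (0.027) and Trib3 from CpG to TLR (0.00695), and the CpG call of Ddost was lost (0.0519). Same-numbered naive and CpG libraries correlated at 0.16, 0.104 and 0.004 in their deviations from the group means, naive and TLR libraries at 0.127 and 0.025, and CpG and TLR libraries at 0.325 and 0.297. Since 1 of the 3 naive and CpG values was under 0.1 and no label ties the numbers, they were not taken as pairs. Naive replicate 3 correlated best with CpG replicate 2 (0.147). Each correlation with TLR replicate 1 returned with the opposite sign for TLR replicate 2, because deviations from a mean of 2 libraries mirror each other. Replicate 1 was also of prefix RCa1 in every group, so these correlations cannot tell pairing from prefix. With 2 TLR libraries, a member that differed between them, such as Hspa5 or Hsp90b1, has a wide error, and levels near 1 CPM (Sec61g) rest on few counts.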
